A study of Drosophila melanogaster with 63 samples.

Results

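Embryos of Drosophila melanogaster mutant for fushi tarazu (ftz) were compared at 3 h and at 2 h after egg laying. The 6 arrays labelled ftz mutant at these times, 3 at each, were taken from the 63 arrays of the series. The series follows ftz mutants, even skipped (eve) mutants and wild type at 2, 3, 6, 7, 8, 9 and 10 h, with 3 arrays for each genotype and time. On each array, total RNA of the sample in Cy3 was set against a common reference in Cy5 that was pooled over the whole of embryogenesis. Values were read as log2 ratios of sample to reference. The files leave the log base and the direction unstated; levels of stage-specific genes make the direction likely, and fold values rest on base 2. A change is the mean at 3 h minus the mean at 2 h. The labels give wild type embryos no strain or treatment, and they name no allele for ftz or eve. Both mutations were kept over balancer chromosomes carrying GFP, and embryos were collected by stage and then genotyped, per the labels' protocols. The labels do not say whether the 3 arrays of a group were separate collections of embryos. The p-values below come from a fit over all 63 arrays. They therefore reflect how far arrays vary within the groups of the whole series, which may be technical, and not the spread of the 6 arrays alone.

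At 2 h a fly embryo is a syncytium whose first zygotic genes are switching on, and by 3 h membranes have grown down between the nuclei and gastrulation is beginning. Maternal messages are being cleared over the same interval, as transcription passes to the zygotic genome. The homeodomain protein Ftz belongs to the pair-rule class, which reads the gap gene pattern and sets the stripes of segment polarity genes; loss of ftz removes alternate parasegments.

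The ftz mutant arrays at 3 h correlated with each other at r = 0.837 to 0.923, and those at 2 h at r = 0.888 to 0.902, over 12424 features that are not independent. Set against the mean wild type profile of each time, the 3 h arrays lay closest to wild type at 3 h (r = 0.690 to 0.723) and the 2 h arrays closest to wild type at 2 h (r = 0.778 to 0.813). The plot of these correlations shows the curves of the 2 times crossing between the first and second wild type stage. The slide numbers in the sample titles were 63, 64 and 68 at 3 h and 69, 65 and 67 at 2 h, with the 2 times interleaved. What these numbers stand for is not given, and some recur for arrays of other groups, so a batch cannot be read from them with certainty. The eve mutant arrays labelled 2 h stood apart, at r = 0.549 to 0.587 with wild type at 2 h. Those labelled 3 h matched wild type at 3 h (0.779 to 0.795) more closely than the ftz mutant 3 h arrays did, and wild type at 2 h (0.780 to 0.791) about as well.

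**Figure D1:**
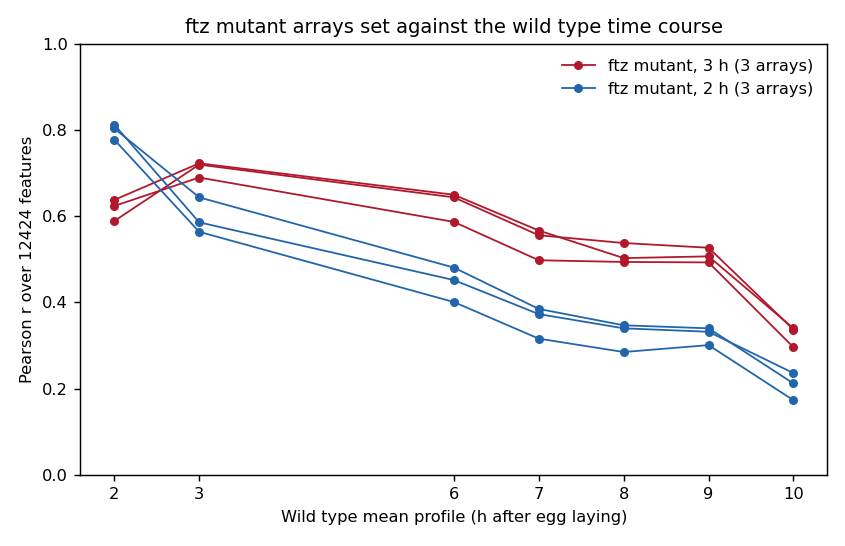
Pearson correlation, over 12424 features, of each ftz mutant array with the mean wild type profile at each time after egg laying; red, 3 arrays at 3 h; blue, 3 arrays at 2 h. The 3 h arrays peak at wild type 3 h (0.690 to 0.723) and the 2 h arrays at wild type 2 h (0.778 to 0.813).

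The ftz transcript itself fell within ftz mutants. It read -0.22, 0.09 and 0.26 at 3 h, against 0.74, 0.52 and 0.74 at 2 h. No array at 3 h reached the level of any at 2 h. The change was -0.62 (SE 0.15, limma adjusted p = 0.00394), a 1.54-fold lower ratio, and in wild type it was -0.57 (limma adjusted p = 0.0073). A mutant allele may still be transcribed, and the allele is not named, so this level is no check of the mutant label. The call for ftz rested on 1 array: without 3 h replicate 1 the change was -0.49 with a limma adjusted p of 0.0772. On a ribosomal protein scale, described with the counts that follow, the change was -0.75 and the limma adjusted p 0.144.

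Of the 12424 features, 1108 (8.92%) passed a limma test at a Benjamini-Hochberg adjusted p under 0.05 and are described as called. The 586 features higher at 3 h made up 4.72% of all features and the 522 lower ones 4.2%. Fewer of the rises were large. The called rises had a median of 0.58, and 30 reached 2-fold, whereas the called falls had a median of -0.65, and 110 reached 2-fold. The median SE of a change was 0.14. Called with a gene name were 483 features higher and 416 lower at 3 h. Without regard to the test, the 3 arrays at 3 h all lay above the 3 at 2 h for 2152 features (17.3%) and all below for 1882 (15.1%). The count depended on single arrays, with 593 called without 3 h replicate 1, 719 without 2 h replicate 1 and 695 without 2 h replicate 2. It also depended on scaling. The deposited arrays share nearly the same distribution of values, so a shift common to most genes between the 2 times cannot be seen. With each array shifted to its own median over 10 cytosolic ribosomal protein genes, the median of all features moved to -0.12 and only 230 features were called, 25 of them (10.9%) higher, against 52.9% higher as deposited.

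Of the 12 largest falls, 10 were in genes that stood above the reference on every 2 h array. Ordered by size among called named genes whose arrays did not overlap, the 12 were CG14915, bard, Elba3, CG15876, CG13711, STUB1, Elba2, CG8507, CG32473, CG6885, bnk and glob1, with changes of -2.53 to -1.71. Elba3 and Elba2 are subunits of a DNA-binding insulator complex of the early embryo, and bnk (bottleneck) restrains the contraction of the actin network while cells form. STUB1 encodes a ubiquitin ligase that works with chaperones, and glob1 a globin. Elba3 read -0.72, -1.37 and -0.76 at 3 h, against 1.51, 1.53 and 0.96 at 2 h, a change of -2.28 (SE 0.25, limma adjusted p = 6.11e-09). Elba2 read -1.11, -0.93 and -0.54 at 3 h, against 1.21, 1.45 and 0.65 at 2 h, a change of -1.97 (limma adjusted p = 1.76e-07). Both genes thus passed from above the reference on each 2 h array to below it on each 3 h array.

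The tightest of these falls was that of CG13711, which read -0.42, -0.47 and -0.41 at 3 h, against 1.81, 1.72 and 1.22 at 2 h. Its change was -2.02 (SE 0.18, limma adjusted p = 3.6e-11), or 4.05-fold. The widest was that of CG14915, with -1.14, -0.72 and 1.91 at 3 h, against 2.78, 2.43 and 2.43 at 2 h. Replicate 3 at 3 h stayed near the 2 h level, and without it the change was -3.48 in place of -2.53. With the 6 arrays alone in the fit CG14915 was not called (limma adjusted p = 0.0639). The same replicate was also the highest of the 3 h arrays for bard, which read -1.62, -0.72 and 0.29 at 3 h, against 1.86, 1.61 and 1.39 at 2 h. The change of glob1 was -1.71 in ftz mutants (limma adjusted p = 1.71e-07) and -0.67 in wild type, and the difference between these did not pass the test (-1.03, SE 0.30, limma adjusted p = 0.127).

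The largest rises were Prx6c, amd, Gss1, CG13465, CG5080, iPLA2-VIA, CG43896, CG12009, Esp, Ama, Mcm5 and CycB, from 1.48 down to 1.08. They include Prx6c, a peroxiredoxin, Gss1, a glutathione synthetase, and iPLA2-VIA, a calcium-independent phospholipase. Prx6c read 2.19, 2.17 and 1.51 at 3 h, against 0.76, 0.31 and 0.38 at 2 h, a change of 1.48 (SE 0.20, limma adjusted p = 1.18e-06). Gss1 read -0.34, -0.24 and -0.52 at 3 h, against -1.74, -1.78 and -1.61 at 2 h, a change of 1.34 (SE 0.12, limma adjusted p = 4.65e-11). Neither overlapped between times; Prx6c lay above the reference at both times, and Gss1 below it at both. amd, a gene related to Dopa decarboxylase, read -0.03, -0.11 and 0.22 at 3 h, against -1.55, -1.24 and -1.17 at 2 h. Ama, a secreted immunoglobulin-domain adhesion protein, read 1.11, 0.94 and 0.90 at 3 h, against -0.09, -0.42 and 0.07 at 2 h (change 1.13, limma adjusted p = 0.0004). Single arrays carried some of these rises past the threshold. Without 2 h replicate 2, which read -3.32 for CG5080 and -3.15 for CG43896, their limma adjusted p became 0.0519 and 0.0697. Without 3 h replicate 1 that of CG13465 became 0.0692. CycB lost its call for each of 3 arrays left out in turn (limma adjusted p = 0.0921 to 0.117), as given with the cell cycle genes. The plot of the 24 genes shows for each how far the arrays of the 2 times lay apart.

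**Figure D2:**
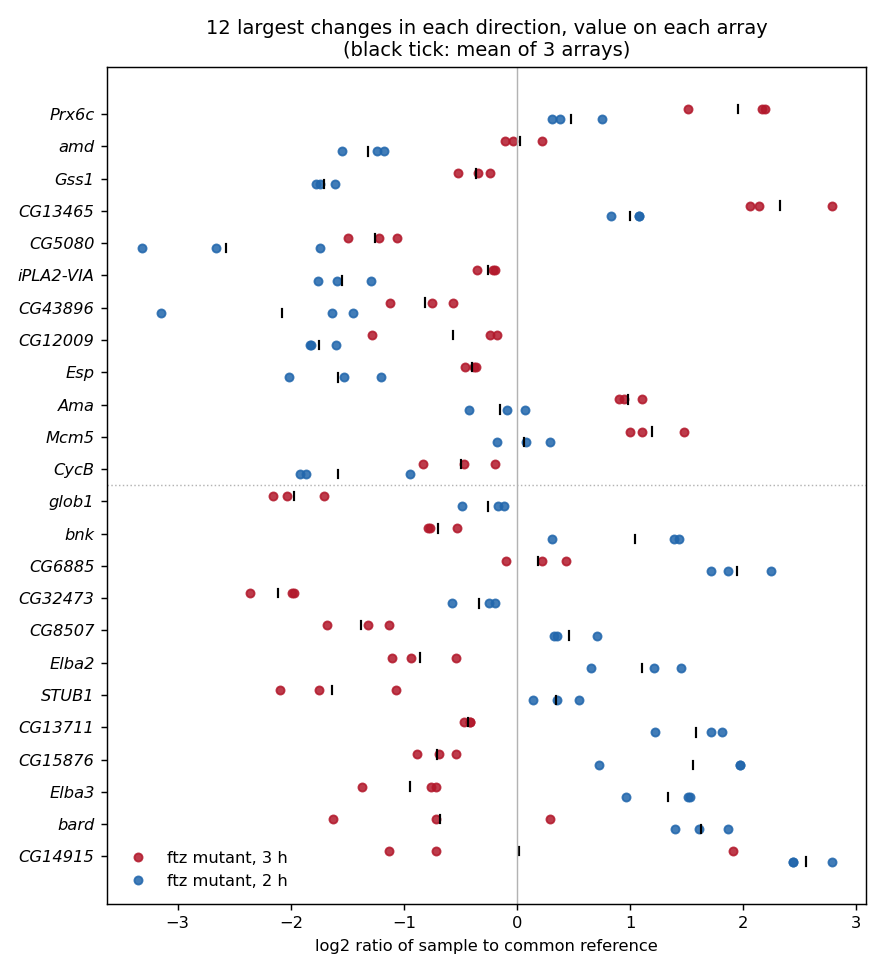
Log2 ratio of sample to common reference on each ftz mutant array for the 12 largest called rises (upper block) and the 12 largest called falls (lower block); red, 3 h; blue, 2 h; black ticks, means of 3 arrays. The genes were chosen for not overlapping, and the 3 h array of CG14915 at 1.91 is the nearest that any fall comes to its 2 h arrays.

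Most measured genes of cellularization and of the early zygotic cytoskeleton fell. Of 11 measured members 7 were called lower and none higher, where 4.2% of all features were called lower, and the list's median change was -1.2 against 0.00 over all features. The 7 were Elba3, Elba2, bnk, Sry-alpha, halo, Nin and nullo. Sry-alpha, which organises actin at the invaginating membrane, read -0.90, -1.2 and -0.07 at 3 h, against 1.15, 0.63 and 0.50 at 2 h, a change of -1.49 (SE 0.35, limma adjusted p = 0.0028). halo, which directs lipid droplet transport, read 0.04, 0.03 and 0.14 at 3 h, against 1.77, 1.37 and 1.28 at 2 h, a change of -1.41 (limma adjusted p = 1.92e-05). The furrow component nullo changed by -0.98 and the centrosomal protein gene Nin by -1.2. All 3 h arrays lay below all 2 h arrays for each of Sry-alpha and halo. The other 4 members, trbl, zld, dia and Septin2, had changes of -0.02, -0.05, 0.09 and 0.16 and were not called; zld encodes the activator of the first zygotic genes. All 18 alternative settings kept 7 members called lower. The list had been used, in wild type and eve mutants, to read the direction of the ratio.

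Maternal transcripts moved both ways. Of 25 measured, 6 were called lower and 4 higher, where 4.2% and 4.72% of all features were, and the median change was -0.19. The 6 were gnu and plu, which activate the PNG kinase at the start of development, smg, an RNA-binding repressor that clears maternal messages, twe, a Cdc25 phosphatase, bcd, the anterior morphogen, and aub, a Piwi-class protein. smg read -2.68, -2.60 and -3.06 at 3 h, against -0.85, -1.61 and -2.13 at 2 h, a change of -1.25 (SE 0.28, limma adjusted p = 0.00153). bcd read -1.64, -1.23 and -1.47 at 3 h, against -0.07, -0.50 and -0.32 at 2 h, a change of -1.15 (SE 0.27, limma adjusted p = 0.00253). Neither gene overlapped between times. In wild type bcd changed by -0.31 (limma adjusted p = 0.556), and the difference from ftz mutants was not called (-0.85, limma adjusted p = 0.491). The 4 that rose were tud, a germ plasm component, mus301, a DNA helicase, mtrm, an inhibitor of Polo kinase, and egl, which links messages to dynein. tud read -0.42, -0.96 and -0.60 at 3 h, against -1.10, -1.49 and -1.53 at 2 h, a change of 0.71 (limma adjusted p = 9.95e-05). On the ribosomal scale none of these 4 stayed called and 4 of the list were lower. The number lower also fell to 1 without 2 h replicate 1, and to 3 without 2 h replicate 2 or without 3 h replicate 1. The call for smg was lost without 2 h replicate 1 (limma adjusted p = 0.0514) and that for mus301 without 2 h replicate 2 (0.0868). Those for gnu and egl were lost for 4 arrays, 3 h replicates 1 and 3 and 2 h replicates 1 and 2 (up to 0.225 and 0.202), and that for twe for 3 h replicates 2 and 3 and 2 h replicates 1 and 2 (up to 0.327).

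Among 9 measured pair-rule genes, ftz and hry fell and slp2 rose, where 8.92% of all features were called. The repressor gene hry (hairy) read -0.67, -0.38 and -0.58 at 3 h, against -0.11, -0.31 and -0.08 at 2 h, a change of -0.38 (SE 0.12, limma adjusted p = 0.0295). slp2, a forkhead factor of the sloppy paired locus, read 0.54, 1.04 and 0.35 at 3 h, against -0.06, -0.10 and 0.29 at 2 h, a change of 0.60 (SE 0.20, limma adjusted p = 0.0437). The arrays of the 2 times did not overlap for either gene, though for both the nearest pair lay within 0.1. Both calls were lost when the 6 arrays were fitted alone (limma adjusted p = 0.057 for hry and 0.0853 for slp2), and on the ribosomal scale no pair-rule gene was called. With 1 array left out, each of the 2 calls was lost for 4 of the 6 arrays: 3 h replicates 1 and 3 and 2 h replicates 1 and 3 for hry (limma adjusted p = 0.0978 to 0.196), and 3 h replicates 1 and 2 and 2 h replicates 1 and 2 for slp2 (0.0842 to 0.295). eve read -0.35, -0.25 and 0.01 at 3 h, against -0.27, -0.08 and -0.13 at 2 h, and the times overlapped (change -0.04, SE 0.16, limma adjusted p = 0.963). odd, prd, sob, Ten-m and ftz-f1 had changes of 0.01, -0.18, 0.14, 0.17 and -0.18 and were not called.

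Wild type embryos showed falls for eve (-0.54) and prd (-0.59) and a rise for Ten-m (0.38) that passed the test there, beside that of ftz. For prd, the ftz mutant arrays read -0.08, 0.05 and 0.27 at 3 h and 0.03, 0.32 and 0.43 at 2 h, against 0.30, 0.74 and 0.22 at 3 h and 1.11, 1.08 and 0.84 at 2 h in wild type. At 2 h the ftz mutant arrays lay below all wild type arrays for eve, hry and prd, as the plot of pair-rule genes shows, a difference of level that was not tested here. None of the 9 genes was called for a difference in its change between ftz mutants and wild type, which ranged from -0.21 to 0.51. At an unadjusted limma p under 0.05 there was 1, where 1042 of all 12424 features stood.

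**Figure D3:**
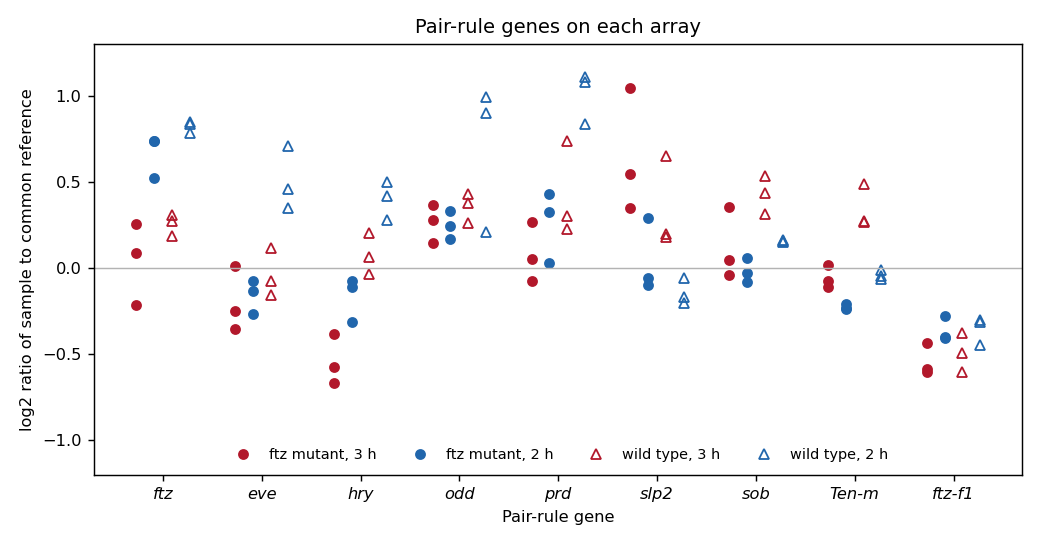
Log2 ratio of sample to common reference for the 9 measured pair-rule genes on each array; filled circles, ftz mutants; open triangles, wild type; red, 3 h; blue, 2 h. In ftz mutants the 2 times separate for ftz, hry and slp2 and overlap for eve, odd and prd.

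The genes upstream and downstream of the pair-rule class did not pass the test. Of 14 gap and head gap genes none was called by limma (1 at an unadjusted p under 0.05). Their changes ran from -0.30 for D to 0.59 for pdm2, a POU-domain gene that read 0.44, 0.56 and 0.48 at 3 h, against -0.07, -0.20 and -0.04 at 2 h (SE 0.21, limma adjusted p = 0.0679). Of 12 segment polarity genes none was called by limma either (1 at an unadjusted p under 0.05), with changes from -0.43 for smo to 0.37 for gsb. In wild type en (0.45) and gsb (0.84) were called higher and smo (-0.55) lower. en, the engrailed homeodomain gene that Ftz activates in alternate stripes, read 0.00, -0.25 and -0.02 at 3 h and 0.04, -0.28 and -0.21 at 2 h in ftz mutants, against 0.39, 0.52 and 0.41 at 3 h and -0.03, 0.03 and -0.05 at 2 h in wild type. Its times overlapped in ftz mutants and not in wild type, yet the difference of the changes did not pass the test (-0.40, SE 0.20, limma adjusted p = 0.587). The largest such difference of the list was that of ci, the transcription factor of the Hedgehog pathway (-1.24, SE 0.50, limma adjusted p = 0.404).

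In the Hox complex zen, a homeodomain gene of the dorsal side, fell most. It read -0.32, -0.62 and -0.07 at 3 h, against 1.74, 1.18 and 0.85 at 2 h, a change of -1.59 (SE 0.27, limma adjusted p = 5.16e-05). Its neighbour zen2 changed by -0.43 (limma adjusted p = 0.00318), and Dfd and Scr by -0.12 and 0.03, not called. The call for zen held in every alternative setting, and that for zen2 was lost on the ribosomal scale and with a minimum change of log2(1.2). The next 4 lists held few called genes, and their counts are to be read against the 8.92% of all features called. In the list of dorsal ectoderm and amnioserosa 2 of 14 genes rose, Doc1, a T-box gene (0.80), and pnr, a GATA factor (0.40), and tld, a protease that frees Dpp, fell by 0.56; on the ribosomal scale none of the 3 was called. Doc1 read 1.55, 1.2 and 1.86 at 3 h, against 0.65, 0.62 and 0.93 at 2 h, with no overlap. Of 18 genes of the mesoderm and ventral furrow, Traf4 and CadN rose (0.70 and 0.65) and Cyp310a1 fell by 0.49. Cyp310a1, a cytochrome P450 gene, read 0.80, 1.53 and 0.64 at 3 h, against 1.37, 1.5 and 1.60 at 2 h, and the times overlapped. Its change differed from that of wild type by -0.89 (SE 0.22, limma adjusted p = 0.0409), the 1 such call in any of the lists, and this call was lost for 9 of 12 arrays left out (up to 0.227). The mesodermal regulators sna and twi changed by 0.15 and 0.00. Of 9 neurogenic ectoderm genes, Egfr and esg rose (0.59 and 0.36), and of 8 genes of JAK-STAT and EGF signalling Egfr and its ligand spi rose (0.59 and 0.57). These rises of Traf4, CadN, Egfr, esg and spi were not called on the ribosomal scale. With 1 of the 6 arrays left out the calls for pnr and spi were always lost, those for Egfr with 5, for Doc1 and Cyp310a1 with 4, for CadN and esg with 3, and for tld with 2 h replicate 2 alone (limma adjusted p = 0.109). Among these the highest limma adjusted p was 0.52, for CadN.

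Genes of the Bearded and Enhancer of split complexes rose in part. Of 12 measured 5 were called higher and none lower, where 4.72% of all features were called higher, with a median change of 0.51. The 5 were E(spl)mbeta-HLH, E(spl)mdelta-HLH and E(spl)m7-HLH, which encode basic helix-loop-helix repressors, and Brd and E(spl)malpha-BFM of the Bearded family. E(spl)mbeta-HLH read 0.07, -0.14 and -0.07 at 3 h, against -0.85, -0.98 and -1.32 at 2 h, a change of 1.0 (SE 0.21, limma adjusted p = 0.000693). E(spl)m7-HLH read 1.21, 0.47 and 0.88 at 3 h, against 0.14, -0.10 and -0.30 at 2 h, a change of 0.94 (SE 0.19, limma adjusted p = 0.000459). For both, each 3 h array was above each 2 h array. All 12 members had changes above 0 (0.11 to 1.0), and in wild type 6 were called higher with a median of 0.68. On the ribosomal scale the median change was 0.39 and none was called, and 3 were called without 3 h replicate 1 or 3 or without 2 h replicate 2 or 3, Brd being lost in each of these (limma adjusted p = 0.084 to 0.152).

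Of 17 genes of DNA replication and the cell cycle, 7 were called higher and 1 lower, where 4.72% of all features were called higher and 4.2% lower, with a median change of 0.41 against 0.00 over all features. The Mcm genes encode the helicase that opens replication origins, and Mcm5, Mcm3, Mcm2, Mcm6 and dpa of this set rose (1.13, 0.99, 0.70, 0.41 and 0.33). Mcm5 read 1.47, 1.0 and 1.11 at 3 h, against 0.08, -0.18 and 0.29 at 2 h (SE 0.19, limma adjusted p = 3.15e-05). Mcm3 read 1.26, 0.95 and 0.78 at 3 h, against -0.13, -0.03 and 0.19 at 2 h (SE 0.15, limma adjusted p = 8.45e-06). Neither overlapped between times, and both held in all 18 alternative settings. The mitotic cyclin gene CycB rose by 1.08, reading -0.19, -0.83 and -0.47 at 3 h, against -0.95, -1.87 and -1.92 at 2 h. Its call was lost without 3 h replicate 1 (limma adjusted p = 0.117), 2 h replicate 2 (0.101) or 2 h replicate 3 (0.0921). fzr, which targets mitotic cyclins for destruction, rose by 0.79 (limma adjusted p = 0.0597 without 3 h replicate 3), and CycD, a G1 cyclin, fell by 0.64. On the ribosomal scale 2 of the list were called higher and none lower.

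Proteasome genes moved both ways. Of 23 measured, 4 were called lower and 3 higher, where 4.2% and 4.72% of all features were. The 4 were all alpha subunits of the core particle, Prosalpha5 (-0.82), Prosalpha4 (-0.78), Prosalpha2 (-0.65) and Prosalpha7 (-0.56). The 3 were subunits of the regulatory particle, Rpn1 (0.73), Rpn8 (0.65) and Rpn7 (0.53). Prosalpha7 read 0.38, 0.44 and 0.42 at 3 h, against 1.01, 1.09 and 0.82 at 2 h (limma adjusted p = 0.00268). Rpn7 read 0.26, 0.14 and 0.18 at 3 h, against -0.39, -0.41 and -0.21 at 2 h (limma adjusted p = 0.0101). The arrays of the 2 times did not overlap for either. In wild type, where 12.2% of all features were called in either direction, 11 of the 23 were called lower and none higher, and the median change was -0.58 against -0.11 in ftz mutants. No member was called for a difference between the 2 changes (limma; 8 at an unadjusted p under 0.05, where 1042 of all 12424 features stood), although all 23 differences were above 0, from 0.01 to 1.07. Without 3 h replicate 1 only 1 of the 23, Prosalpha7, was called in ftz mutants, and 3 or 4 were called without 2 h replicate 1, 2 h replicate 2 or 3 h replicate 2. The calls for Prosalpha4, Prosalpha2 and Rpn8 were each lost for 4 of the 6 arrays left out (limma adjusted p up to 0.417). That for Rpn7 was lost for 3, and those for Prosalpha5 and Rpn1 for 2 each. On the ribosomal scale 3 of the 23 were called lower and none higher between the 2 times in ftz mutants. For the difference from wild type, that scale moved the median of all features to -0.18. There limma called no feature (348 at an unadjusted p under 0.05).

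**Figure D4:**
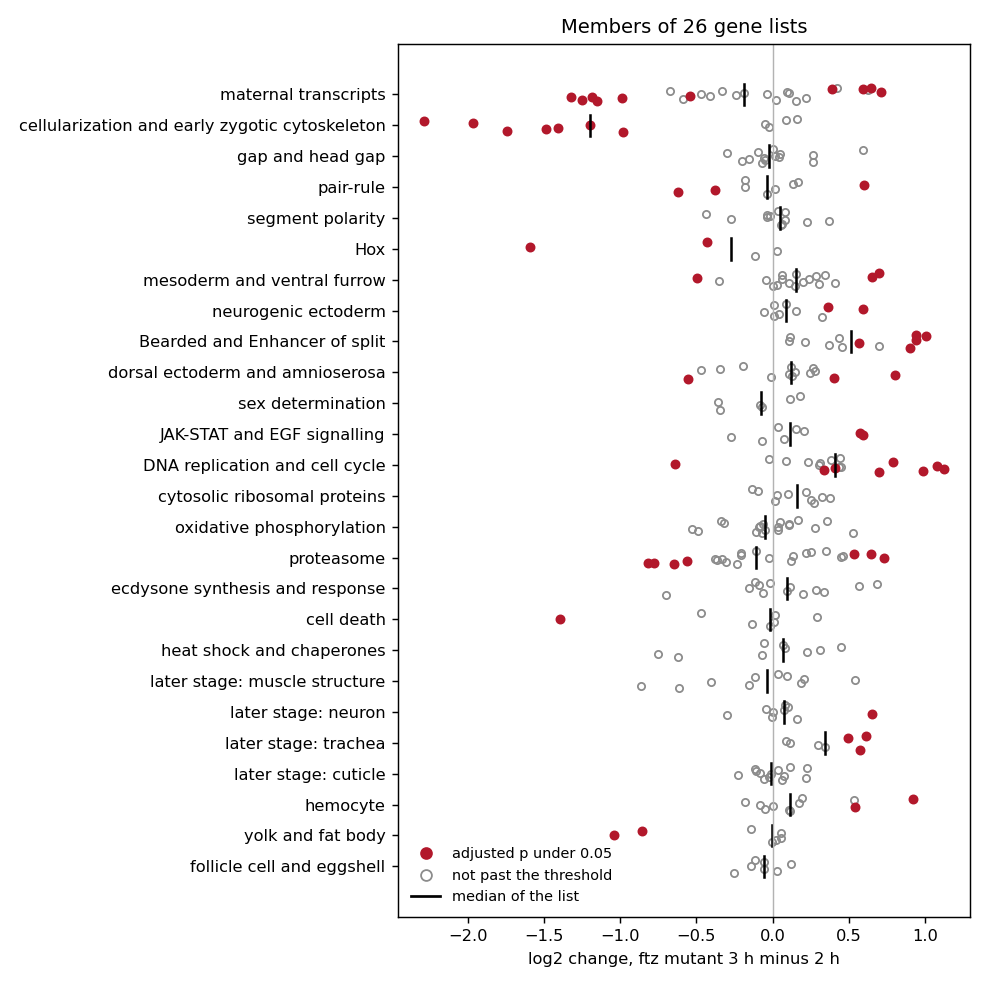
Change in log2 ratio from 2 h to 3 h in ftz mutants for the members of 26 gene lists; filled red, limma adjusted p under 0.05; open grey, not past the threshold; black bars, list medians. The cellularization list lies lowest, with a median of -1.2 and 7 of 11 members called.

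Dronc, the initiator caspase, fell. It read -1.2, -0.72 and -0.86 at 3 h, against 0.49, 0.70 and 0.22 at 2 h, a change of -1.40 (SE 0.17, limma adjusted p = 5.77e-08), and it was the only one of 7 cell death genes called. No gene was called by limma among 10 cytosolic ribosomal protein genes, 19 of oxidative phosphorylation, 13 of ecdysone synthesis and response, 9 heat shock genes and 6 of sex determination. At an unadjusted p under 0.05 these lists held 0, 6, 3, 2 and 1. The ribosomal protein genes had a median change of 0.16.

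Markers of later stages and of other tissues mostly did not pass the test. Of 10 muscle, 13 cuticle and 7 follicle cell genes none was called by limma (2, 1 and 0 at an unadjusted p under 0.05). The muscle list had medians of -1.65, -1.56 and -1.69 on the 3 h arrays, against -1.77, -1.49 and -1.79 on the 2 h arrays. Of 9 neuronal markers CadN alone was called, and elav, which defines neurons, changed by 0.16. Of 7 tracheal genes knk, btl and uif rose (0.61, 0.57 and 0.50), and of 11 hemocyte genes Col4a1 and Pxn (0.92 and 0.54), where 4.72% of all features were called higher. None of the 5 was called on the ribosomal scale. With 1 array left out the calls for knk, uif and Pxn were each lost for 4 arrays, 3 h replicates 1 and 3 and 2 h replicates 1 and 2 (limma adjusted p up to 0.205), and that for Col4a1 without 3 h replicate 3 or 2 h replicate 1 (up to 0.0968). The list medians of hemocyte genes were -0.05, 0.02 and -0.08 at 3 h, against -0.19, -0.34 and -0.38 at 2 h, without overlap. Of the 11 hemocyte genes 9 were not called, and among single features 17.3% lay wholly higher at 3 h in this way. The neuronal list medians separated the other way, with -0.15, -0.15 and -0.13 at 3 h, against -0.08, -0.05 and -0.08 at 2 h. Its members did not fall as a set, as 6 of the 9 had changes above 0 and the median change was 0.07. Among single features 15.1% lay wholly lower at 3 h. Of 7 yolk and fat body genes, Lsp2 and Fbp2 of the larval fat body fell by 1.04 and 0.86 (limma adjusted p = 0.000863 and 0.00367). The other 5 were not called, and the list's median change was 0.00. For both, 2 h replicate 3 was highest, with 1.97 for Lsp2 and 1.64 for Fbp2, against 0.92 and 1.29 for Lsp2 and 0.72 and 0.92 for Fbp2 on the other 2 h arrays. Without that array Fbp2 was not called (limma adjusted p = 0.0887). In whole embryos fewer cells of a type and less RNA per cell cannot be told apart, and the part of these markers in the other changes was not tested.

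The change over this hour ran largely parallel to that of wild type, in which 1516 features (12.2%) were called. The 2 sets of changes correlated at r = 0.636 over all features, which are not independent of each other. Of the features called higher in ftz mutants 252 were also called higher in wild type, 43% of the ftz mutant calls and 37.2% of the wild type calls. Of those called lower 308 were shared, 59% of the ftz mutant calls and 36.7% of the wild type calls. Called in opposite directions were 1 that rose and 3 that fell in ftz mutants. The difference of the 2 changes was called for 51 features (0.41%), 24 higher and 27 lower in ftz mutants. In 36 of the 51 the wild type change was the larger, and 40 were called in wild type against 18 in ftz mutants. This count was 27 without ftz mutant 3 h replicate 1, 21 without replicate 3, 26 without ftz mutant 2 h replicate 3 and 29 without wild type 2 h replicate 1 or 2. On the ribosomal scale limma called none (348 at an unadjusted p under 0.05), and with a minimum change of log2(1.2) none (262). Wild type slide numbers were 8, 7 and 6 at 3 h and 70, 71 and 9 at 2 h. Any batch that these mark is therefore largely mixed with time in wild type, and so with these differences. With runs of neighbouring slide numbers as a term 67 features were called, and 42 of the 51 stayed called.

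**Figure D5:**
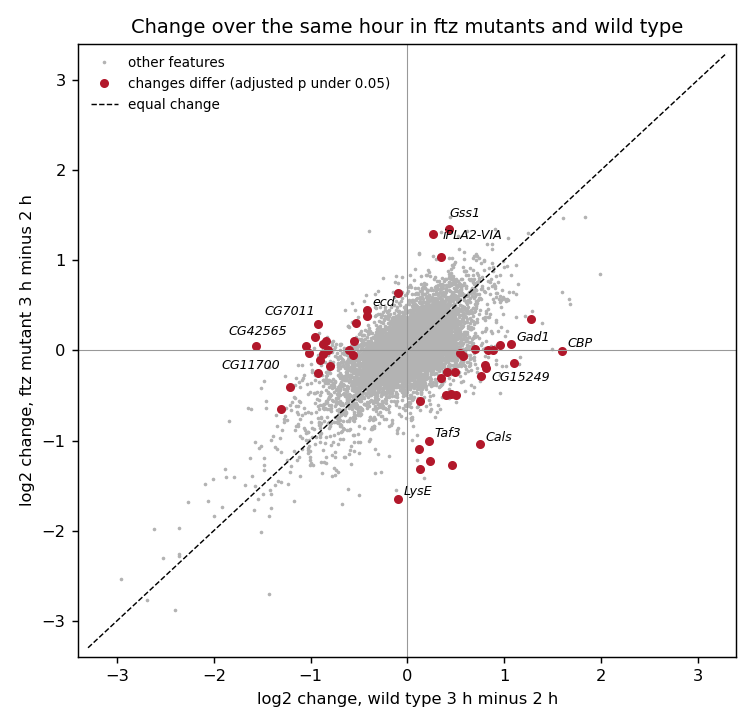
Change in log2 ratio from 2 h to 3 h in ftz mutants (vertical) against that in wild type (horizontal) for 12424 features; red, the 51 whose changes differ by limma; dashed line, equal change. Named are the 6 genes of largest called difference in each direction, among which Gad1 and CBP lie near 0 in ftz mutants and LysE and Taf3 near 0 in wild type.

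Of the genes whose changes differed, Taf3, iPLA2-VIA, LysE and Cals passed the test in ftz mutants and not in wild type. Taf3, a subunit of the general factor TFIID, read -1.63, -0.97 and -1.28 at 3 h and -0.18, -0.49 and -0.20 at 2 h in ftz mutants, against 0.10, 0.28 and 0.13 at 3 h and -0.08, -0.21 and 0.14 at 2 h in wild type. The difference was -1.22 (SE 0.22, limma adjusted p = 0.00493), with no overlap in ftz mutants. The phospholipase gene iPLA2-VIA read -0.21, -0.36 and -0.19 at 3 h and -1.29, -1.59 and -1.76 at 2 h in ftz mutants, against -0.43, -0.51 and -0.42 at 3 h and -0.71, -0.87 and -0.58 at 2 h in wild type. Its difference was 1.03 (SE 0.19, limma adjusted p = 0.00588). The values show that the genotypes lay closer at 3 h than at 2 h, where the ftz mutant arrays were lower. Gss1 differed in the same direction by 0.91 (SE 0.17, limma adjusted p = 0.00588), with a called rise in both genotypes.

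LysE, a lysozyme gene, read -0.01, 0.11 and 0.31 at 3 h and 1.32, 1.26 and 2.78 at 2 h in ftz mutants, against -0.09, 0.03 and 0.24 at 3 h and 0.08, 0.27 and 0.13 at 2 h in wild type. Its difference was -1.55 (limma adjusted p = 0.00722), and -1.05 (limma adjusted p = 0.0563) without ftz mutant 2 h replicate 3. For Cals, which encodes the cadherin-like calsyntenin, the ftz mutant arrays read -1.92, -2.30 and -2.11 at 3 h and -0.64, -1.45 and -1.12 at 2 h, against -0.03, -0.14 and -0.30 at 3 h and -0.90, -0.88 and -0.94 at 2 h in wild type. The arrays of the 2 times did not overlap in either genotype and lay in opposite order, although the wild type change of 0.75 was not called (limma adjusted p = 0.101). The changes differed, with a difference of -1.79 (SE 0.43, limma adjusted p = 0.0375). The call for Cals was lost with any 1 of 11 of the 12 arrays left out (limma adjusted p up to 0.144), ftz mutant 2 h replicate 2 being the exception.

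Gad1, CBP, CG15249, CG11700, CG42565 and CG7011 passed the test in wild type and not in ftz mutants. Gad1, which makes the transmitter GABA, read -0.01, 0.08 and -0.08 at 3 h and -0.14, 0.01 and -0.07 at 2 h in ftz mutants, against 0.63, 1.02 and 1.03 at 3 h and -0.18, -0.11 and -0.24 at 2 h in wild type. Its difference was -1.0 (SE 0.15, limma adjusted p = 0.000376), and the wild type arrays at 3 h lay above all the others. CBP (-1.60, limma adjusted p = 0.00493) and CG15249 (-0.96, limma adjusted p = 0.00663) likewise changed by -0.01 and -0.16 in ftz mutants and by 1.60 and 0.80 in wild type. The 2 deposited values of CBP disagreed in the sign of their change in ftz mutants, where the averaged change was near 0. Their wild type changes were not compared in this way. CG11700, CG42565 and CG7011 changed by -0.03, 0.07 and 0.11 in ftz mutants and by -1.02, -0.87 and -0.84 in wild type. ecd, needed for ecdysone production, rose by 0.45 in ftz mutants and fell by 0.42 in wild type, a difference of 0.87 (SE 0.19, limma adjusted p = 0.0159). The call for its rise in ftz mutants was itself lost with 4 of the 6 arrays left out, 3 h replicates 1 and 3 and 2 h replicates 1 and 2 (limma adjusted p up to 0.233). With 1 array left out the difference lost its call for 5 of 12 arrays for CG11700 (limma adjusted p up to 0.0706), 9 for CG7011 (up to 0.189) and 2 for ecd, ftz mutant 3 h replicate 3 and 2 h replicate 1 (up to 0.0847). With the 12 arrays of these 4 groups alone in the fit, the difference was not called for CG11700 (limma adjusted p = 0.0518), CG42565 (0.173), CG7011 (0.18) or LysE (0.142).

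Against eve mutants the comparison rests on 2 h arrays that stood apart. In eve mutants 2932 features (23.6%) were called between 3 h and 2 h, and the eve transcript rose there by 1.37 (limma adjusted p = 1.02e-08), while the changes correlated with those of ftz mutants at r = 0.063. The slide numbers of eve mutants were 94, 95 and 96 at 3 h and 59, 60 and 61 at 2 h, and any batch that these mark cannot be told apart from time. In wild type they were 8, 7 and 6 at 3 h and 70, 71 and 9 at 2 h, so there too the times were largely apart. The difference of the ftz mutant and eve mutant changes was called for 2053 features (16.5%), and for 1037 with runs of neighbouring slide numbers as a term. The run of the eve mutant 3 h slides otherwise held only wild type 10 h replicate 2. In eve mutants the term thus rests on that array, and the counts under it do not separate batch from time. Of the 2053, 682 stayed called under that term and 62 changed sign, and of the 2932 calls in eve mutants 668 stayed called and 224 changed sign. Among the largest, the falls of halo, CG14915, Elba3 and Elba2 in ftz mutants faced changes of 1.18, -0.12, 0.09 and 0.27 in eve mutants, the differences being -2.58, -2.41, -2.38 and -2.24. At the other end stood CG10591, EAChm, Got2 and Ubi-p63E, with differences of 4.71, 2.63, 2.55 and 2.51. CG10591 read -2.51, -2.69 and -2.33 at 3 h, against -3.32, -3.74 and -3.74 at 2 h in ftz mutants, where -3.74 is the lowest value in the whole table. With the 6 early eve mutant arrays left out of the fit, 1098 features were called in ftz mutants.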

How the data were processed

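The authors deposited 1 table of log ratios, 1 column per array, read here as log2, and the submitters' processing notes name limma. Version, background correction and any filter on probes were not stated in those notes. The log base, on which fold values rest, and which channel is on top are likewise unstated. Sorted values differed by at most 0.000784 between arrays, which shows that the deposited ratios had been quantile normalized. The design had assumed otherwise. A shift of the whole transcriptome between 2 h and 3 h therefore cannot be seen. The median change near 0 over all features and the balance of rises and falls are partly set by this step. The deposited values ran from -3.74 to 2.78. Sample over reference is the likely direction: the cellularization list stood at -1.44 at 10 h and 0.81 at 2 h in wild type, and the muscle list at -1.68 and -1.79, likewise in eve mutants.

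Of 20000 features 6772 were blank, and 10096 had 1 symbol in the platform annotation. Values of 1 symbol were averaged (696 genes), giving 12424 features, 9292 of them named. One model over all 63 arrays with 21 group means was fitted with limma 3.58.1 (R 4.3.3, statmod 1.5.0), with 2-sided moderated tests and Benjamini-Hochberg adjustment over all features at 0.05. It was also run on data simulated from its own fitted means and spread, with independent noise and no batch. Such data cannot show how well the model suits these arrays. Precision is set by how many arrays a group has.

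The genes compared and the 26 gene lists were chosen with earlier results of these data known. Named are ftz and eve, the 12 largest called changes each way without overlap, up to 4 called members of each list each way, all measured pair-rule, gap and segment polarity genes, and the 6 (wild type) and 4 (eve) largest called differences each way. Other list members were named after their values were seen. Alternatives covered the arrays fitted, each array left out, replicate block, runs of neighbouring slide numbers (a reading of the titles, not a stated batch), scaling, filter, moderation, weights, averaging and a minimum change.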

Additional observations from a re-analysis of the deposited data

Results flagged for a closer look

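The change from 2 h to 3 h differed between ftz mutants and wild type, by a test of the difference itself in limma, for 51 features. In log2 units, ftz mutant change minus wild type change, the differences below 0 were Cals (-1.79), CBP (-1.60), LysE (-1.55), Taf3 (-1.22), Gad1 (-1.0) and CG15249 (-0.96). Those above 0 were iPLA2-VIA (1.03), CG11700 (0.99), CG42565 (0.95), CG7011 (0.95), Gss1 (0.91) and ecd (0.87).

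Against eve mutants the same test called 2053 features. The differences, ftz mutant change minus eve mutant change, were -2.58 for halo, -2.41 for CG14915, -2.38 for Elba3 and -2.24 for Elba2, and 4.71 for CG10591, 2.63 for EAChm, 2.55 for Got2 and 2.51 for Ubi-p63E. The eve mutant arrays at 2 h stood apart from wild type at 2 h, and the part of this in the differences was not tested.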

How the results depend on the processing

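The ftz mutant count of 1108 was 593 to 1024 with 1 array left out. It became 1667 with only the 2 h and 3 h arrays in the fit, 2877 with array weights, 230 on the ribosomal scale and 209 with a minimum change of log2(1.2). The difference from wild type (51) ranged from 21 to 66 with 1 array left out and was 645 with array weights, 29 with the filter on mean absolute value, and, by limma, 0 on the ribosomal scale (348 at an unadjusted p under 0.05) and 0 with the minimum change (262). The difference from eve mutants (2053) ranged from 1496 to 2101 with 1 array left out and was 4105 with weights, 1037 with slide runs, 1018 on the ribosomal scale (5.70% higher in ftz mutants, against 48%), 1210 with the filter and 610 with the minimum change. In wild type (1516) the counts were 1012 to 1282 with 1 array left out, 2616 with weights, 250 on the ribosomal scale and 294 with the minimum change. In eve mutants (2932) they were 2099 to 2648, 1034 with slide runs, 1707 on the ribosomal scale (92.9% higher, against 55.3%), 1646 with the filter and 698 with the minimum change. The causes were not tested, but the filter tests fewer features and the minimum change asks more of each. The labels' replicate digits did not pair the ftz mutant arrays (correlation of same-digit deviations 0.077, 0.071 and -0.025). With the replicate block the counts were 1034 in ftz mutants, 63 for the difference from wild type, 1906 for that from eve mutants, 1484 in wild type and 2788 in eve mutants. Of 76 named genes called in ftz mutants, 28 stayed called in every alternative, and none called as reported changed sign. With slide runs the ftz mutant count was 1375. All 6 ftz mutant arrays at 2 h and 3 h fell in the same run, so that term could not alter their changes, only the tests. Without the early eve mutant arrays the ftz mutant count was 1098. Leaving out those arrays, and most alternatives for the contrasts other than that of ftz mutants, were chosen after seeing the data. Signal over background is not known here, so dim probes could not be set apart.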

Other observations

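Later ftz mutant arrays gave the levels of these genes after 3 h. Elba3 averaged -1.50 ± 0.36 at 6 h and -2.01 ± 0.20 at 10 h (SD, n = 3 each), and bnk -1.19 ± 0.02 and -1.90 ± 0.12, both below their 3 h means of -0.95 and -0.70. glob1 averaged -1.97 ± 0.24 at 3 h, -0.94 ± 0.25 at 6 h and 0.49 ± 0.05 at 10 h. Among the rises, Brd averaged 1.53 ± 0.15 at 3 h, 1.55 ± 0.21 at 6 h and -1.39 ± 0.35 at 10 h, and Mcm5 1.19 ± 0.25, 0.16 ± 0.36 and -1.01 ± 0.07. Cals, at -2.11 ± 0.19 at 3 h, stood at 0.61 ± 0.19 at 6 h and 0.92 ± 0.28 at 10 h. en averaged -0.09 ± 0.14 at 3 h and 0.61 ± 0.19 at 6 h, where wild type had 0.59 ± 0.13. These later values were not tested here.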
